A study of Mus musculus with 6 samples.

Results

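Levels of T-box genes were examined in the RNA-seq counts of AE9a leukemia cells with and without Ddit4. The T-box genes described are Tbx1, Tbx2, Tbx3, Tbx4, Tbx5, Tbx6, Tbx21 and Eomes, 8 of the 55421 genes in the count table. They were chosen by name, with their levels in the comparison of AE9a-Ddit4-/- with AE9a-Ddit4+/+ cells already known, so their own differences between these groups are given below as a description and without a test. The 9 T-box genes left out of that choice (T, Tbr1, Tbx10, Tbx15, Tbx18, Tbx19, Tbx20, Tbx22 and Mga) are given for comparison.

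Bone marrow leukemia cells from C57BL/6 mice were profiled in 3 AE9a-Ddit4+/+ (wild-type) and 3 AE9a-Ddit4-/- (knockout) libraries. All 6 carry AE9a, a truncated AML1-ETO fusion protein that was delivered by retrovirus into c-Kit+ bone marrow cells of young adult donor mice, so that infected cells are GFP+. These cells give leukemia in irradiated recipients, and the labels state that leukemia cells were kept in IMDM with serum. Whether the 3 libraries of a group came from separate leukemias or mice is not stated in the labels. The paper describes the sequenced cells as taken from bone marrow of transplanted mice. Its primary transplant cohort gave fewer knockout leukemias than there are knockout libraries here. If all knockout libraries trace to that cohort, some share a primary leukemia. Which libraries share one was not tested, nor was the part of differences between single leukemias in the group differences. All p-values below measure only the spread between libraries, which may be technical. The age and sex of the animals behind each library are not given in the labels. The paper names female C57BL/6 recipients for its transplantable AE9a model and its limiting dilution assay.

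The libraries held between 62141558 and 72717681 counts. Ddit4 itself stood at 228, 161 and 342 CPM (counts scaled to a library of 1e+06) in the wild-type libraries and at 84.9, 77.7 and 85.9 CPM in the knockout libraries, so the groups did not overlap but reads over the gene remained in the knockout. Ddx3y, a gene of the Y chromosome, was read at 88.2 to 125 CPM in the knockout libraries and at 0.0589 to 0.0774 CPM in the wild type. Xist, which female cells transcribe from their silenced X, was at 566 to 1032 CPM in the wild type and still at 63.2, 20.3 and 129 CPM in knockout libraries 1 to 3, lowest in library 2. Genotype and the sex of the cells cannot be told apart here, and the knockout libraries held reads of both genes. Of 10 blood progenitor and myeloid markers, which check the labelled cell type, all 10 had a mean above 1 CPM in both groups. Among them Cd34, a stem and progenitor surface protein, was at 5.92 ± 3.79 CPM (SD, n = 3) in the wild type and 519 ± 34.4 CPM (n = 3) in the knockout, with a log2 fold change of 6.45 (SE 0.57, adjusted p = 0.0005 by edgeR's quasi-likelihood test). Kit (log2 fold change 4.06), Runx1t1 (3.55), Ptprc (2.43) and Myb (0.78) were also higher in the knockout, while Mpo stood at 488 ± 328 CPM in the wild type and 456 ± 104 CPM in the knockout (adjusted p = 0.903). Runx1t1 is the mouse gene for ETO, and whether reads of the AE9a vector enter its count was not tested.

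T-box proteins are transcription factors that share a DNA-binding domain, the T-box, and act in most organs of the embryo. Tbx1 works in the pharyngeal arches, Tbx2 and Tbx3 are mostly repressors, in heart, limb and mammary gland, Tbx4 works in hindlimb and lung, Tbx5 in forelimb and heart, and Tbx6 in the mesoderm that forms the somites. Eomes acts in trophoblast and primitive streak, and again in NK cells and CD8+ T cells beside Tbx21, which encodes T-bet, the factor of type 1 helper T cells and NK cells. In the adult mouse, T-bet and Eomes are the family members best known from blood, where they belong to lymphocytes rather than to myeloid cells.

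Promoters are shown first for Tbx4, Tbx21 and Eomes, the 3 with the highest knockout levels per exon length among those with no more than 12 counts in any wild-type library. Each is the 250 bases before a RefSeq transcription start in build GRCm38, read 5′ to 3′ on the strand of the gene, and capitals mark the letters TATAA wherever they occur on either strand. Tbx4 (chr11:85896515-85896764, plus strand) is represented by a start inside the gene, 10.34 kb downstream of the start of the GENCODE gene; which start the counted reads came from was not tested. Tbx21 lies at chr11:97115332-97115581 (minus strand) and Eomes at chr9:118477939-118478188 (plus strand).
Tbx4: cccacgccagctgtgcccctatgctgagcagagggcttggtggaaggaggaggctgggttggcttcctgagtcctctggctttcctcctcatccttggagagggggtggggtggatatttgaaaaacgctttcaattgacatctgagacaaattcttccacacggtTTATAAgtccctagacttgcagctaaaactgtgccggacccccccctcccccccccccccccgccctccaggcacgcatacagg
Tbx21: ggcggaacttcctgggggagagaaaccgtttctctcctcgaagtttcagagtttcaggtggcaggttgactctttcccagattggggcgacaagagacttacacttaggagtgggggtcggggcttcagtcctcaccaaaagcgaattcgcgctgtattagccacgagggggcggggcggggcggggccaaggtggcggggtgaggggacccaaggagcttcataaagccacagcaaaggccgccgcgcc
Eomes: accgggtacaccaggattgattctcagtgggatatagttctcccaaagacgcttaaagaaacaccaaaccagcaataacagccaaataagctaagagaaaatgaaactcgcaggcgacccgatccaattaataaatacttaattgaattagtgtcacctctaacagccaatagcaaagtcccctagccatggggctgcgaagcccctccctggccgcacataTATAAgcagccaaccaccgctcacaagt

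The promoter table held 6 promoters for 5 of the 8 genes (Tbx1, with 2, and Tbx4, Tbx6, Tbx21 and Eomes). These were searched on both strands for the letters TGTGGT (a RUNX motif, the DNA motif of AML1), GGTGTG (the core of a T-box motif), AGATAA (the motif of GATA factors) and for TATAA. None of the 6 windows held the RUNX, T-box or GATA letters, which occur in 14.0%, 16.3% and 9.99% of all 32851 promoters of the same length. TATAA, which 22.8% of all promoters hold, occurred once in Eomes, 28 bases before the start, and once in Tbx6, 43 bases before it. In Tbx4 it occurred on both strands in overlapping positions that form the capitals above, and neither Tbx21 nor Tbx1 held it. GC content was 58.4% in the Tbx4 window, 60.8% in Tbx21 and 46.4% in Eomes, beside a median of 52.4% over all promoters. A match is no evidence of a bound site, and a missing match says only that these letters are not in the window.

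Of the 8 genes, 6 passed the filter on low counts and had higher scaled levels in every knockout library than in every wild-type library. Tbx3 and Tbx5 did not pass the filter. Tbx1, Tbx4, Tbx21 and Eomes had no more than 12 counts in any wild-type library and could pass the filter only through their knockout levels. For Tbx2 the lack of overlap depends on the scaling. Among all 18375 genes tested, 27.9% had knockout libraries above the wild-type libraries without overlap. At an adjusted p under 0.05, 19.4% were higher in the knockout and 10.7% lower, 30.1% in either direction. These shares are printed as background only, since the 8 genes were chosen with this comparison known. All levels below are CPM scaled by TMM, and the limit of detection was set at 12 counts, which is 0.163 to 0.198 CPM depending on the library. In bulk RNA, more cells of a type and more RNA per cell cannot be told apart.

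**Figure D1:**
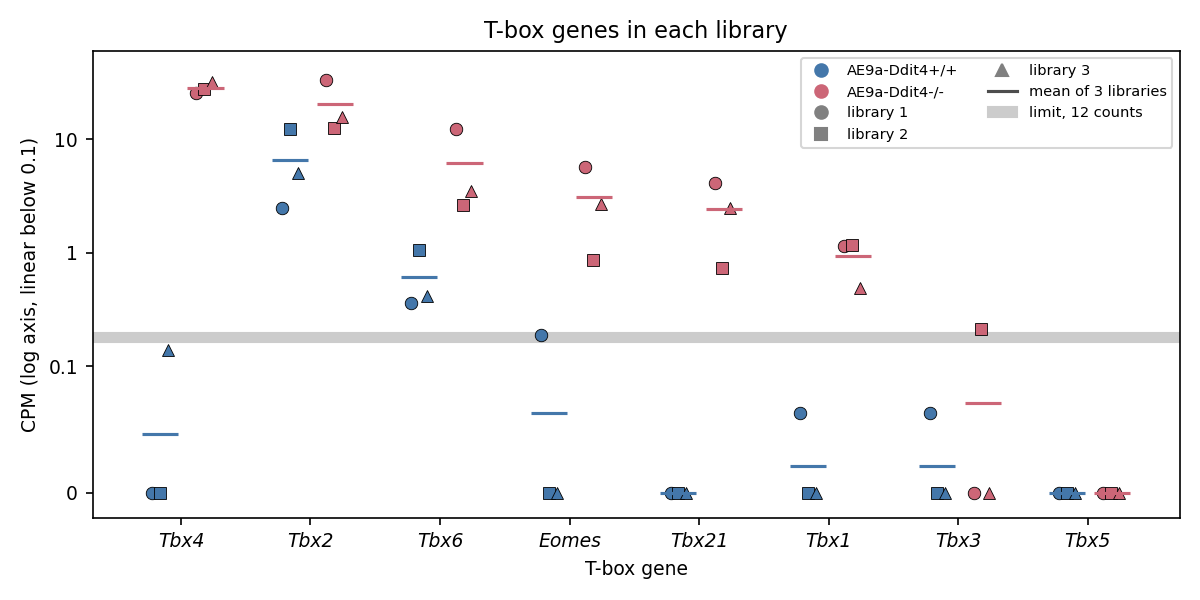
Scaled level of each T-box gene (CPM, vertical axis, log scale above the linear range near 0) in each of the 3 wild-type and 3 knockout libraries, 1 point per library, with genes along the horizontal axis, short lines for the group means and a grey band for the limit of 12 counts. Tbx4 stands at 25.6 to 31.8 CPM in the knockout libraries and at 0 to 0.139 CPM in the wild type, while the lowest knockout and highest wild-type points of Tbx2 lie side by side at 12.6 and 12.3 CPM.

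Tbx4, which patterns the hindlimb and the lung bud, gave the widest gap. The gene (ENSMUSG00000000094) lies at chr11:85886422-85916097 on the plus strand of GRCm38. It was counted 1596, 1677 and 2339 times in knockout libraries 1 to 3 and 0, 0 and 9 times in wild-type libraries 1 to 3, or 25.6, 27.6 and 31.8 CPM against 0, 0 and 0.139 CPM. All wild-type libraries were thus under the limit of detection, and the 3 knockout libraries differed by no more than 1.24-fold from each other. The knockout mean was 28.3 ± 3.15 CPM (SD, n = 3), 154 times the limit of detection.

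Tbx2, a repressor whose gene lies 44.5 kb from Tbx4 on the same chromosome and strand (ENSMUSG00000000093, chr11:85832551-85841948), behaved otherwise. Its level was 33.2, 12.6 and 15.8 CPM in the knockout libraries and 2.49, 12.3 and 4.998 CPM in the wild type. It was thus read in all 6 libraries, and wild-type library 2 nearly reached knockout library 2. Without TMM the order of those libraries turned, with 11.6 CPM in knockout library 2 and 13.0 CPM in wild-type library 2, so whether the groups overlap depends on the scaling. The means were 20.5 ± 11.1 CPM in the knockout and 6.61 ± 5.13 CPM in the wild type, with a log2 difference of 1.63. That difference was 1.11 without knockout library 1 and 2.45 without wild-type library 2.

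The paralogs Tbx3 and Tbx5 form a matching pair on chromosome 5, 147.9 kb apart. Tbx3 (ENSMUSG00000018604, chr5:119670669-119684724, plus strand) had 0, 13 and 0 counts in the knockout and 4, 0 and 0 in the wild type. Tbx5 (ENSMUSG00000018263, chr5:119832668-119885219, plus strand), the forelimb and heart factor, had 0 counts in all 6 libraries. Neither gene was therefore measurable at this depth, and any level would lie at or about the limit of detection. Tbx3 is overlapped by the antisense gene Tbx3os1, and the strand of the counts is not given in the sources used here.

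Tbx6, required for somite mesoderm, is ENSMUSG00000030699 at chr7:126781483-126785560 on the plus strand. Its level was 12.2, 2.65 and 3.49 CPM in the knockout libraries and 0.364, 1.06 and 0.418 CPM in the wild type. The groups did not overlap, but knockout library 1 stood far above the other two. The means were 6.12 ± 5.29 CPM and 0.614 ± 0.388 CPM, with a log2 difference of 3.31. That difference fell to 2.32 without knockout library 1 and was 3.96 without wild-type library 2.

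Tbx21, the T-bet gene (ENSMUSG00000001444, chr11:97098071-97115331, minus strand), was counted 257, 45 and 182 times in the knockout libraries, or 4.13, 0.741 and 2.47 CPM. It had 0 counts in all 3 wild-type libraries. The knockout mean of 2.45 ± 1.69 CPM was at least 13.3-fold higher, taking the limit of 12 counts per library for the wild type. Knockout library 2 was the lowest of the 3 and library 1 the highest.

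Eomes (ENSMUSG00000032446, chr9:118478212-118486132, plus strand) was counted 357, 52 and 198 times in the knockout and 12, 0 and 0 times in the wild type. In CPM these were 5.73, 0.856 and 2.69 against 0.190, 0 and 0. The order of the knockout libraries was that of Tbx21, and no wild-type library exceeded the limit of detection. The knockout mean was 3.09 ± 2.46 CPM, 16.8 times that limit. An antisense gene, Gm33460, overlaps Eomes and was too low to be tested.

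Tbx1, the pharyngeal arch gene (ENSMUSG00000009097, chr16:18580979-18590671, minus strand), was the lowest of the 6. It had 72, 71 and 36 counts in the knockout libraries, or 1.16, 1.17 and 0.489 CPM, and 4, 0 and 0 counts in the wild type. Here library 3, not library 2, was the lowest knockout library. The knockout mean of 0.938 ± 0.389 CPM was 5.09 times the limit of detection.

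Per kb of exon, which allows genes to be compared, Tbx4 led in the knockout with 8.33 ± 0.926 CPM per kb (SD, n = 3). It was followed by Tbx2 at 5.66 ± 3.06, Tbx6 at 3.39 ± 2.93, Tbx21 at 0.984 ± 0.681, Eomes at 0.745 ± 0.593 and Tbx1 at 0.267 ± 0.111 CPM per kb. The mean levels of Tbx4 and Tbx2 per kb differed 1.47-fold, and their libraries overlapped, as 7.54 to 9.35 for Tbx4 includes the highest Tbx2 library at 9.15 CPM per kb. Tbx2 and Tbx6 also overlapped, as did Tbx21 and Eomes (0.298 to 1.66 against 0.206 to 1.38 CPM per kb). Tbx6 and Tbx21 overlapped at the edge, with a lowest Tbx6 library at 1.47 CPM per kb. Tbx1 (0.139 to 0.332) overlapped only the low end of Eomes and Tbx21. In the wild type the order was Tbx2 at 1.82 ± 1.41 and Tbx6 at 0.341 ± 0.215 CPM per kb, with the rest under the limit of detection.

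**Figure D2:**
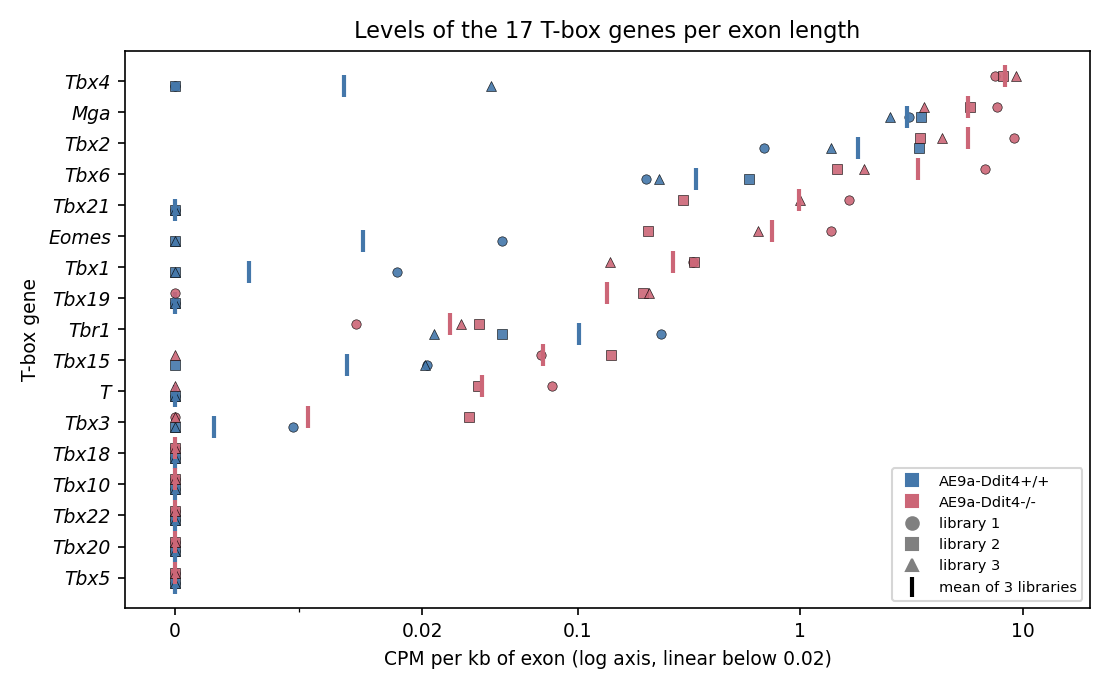
Level of all 17 T-box genes in CPM per kb of exon (horizontal axis, log scale, linear below 0.02), with the 3 wild-type libraries in blue, the 3 knockout libraries in red and vertical ticks for the group means. Tbx4 (mean 8.33), Mga (5.68) and Tbx2 (5.66) head the knockout libraries, Mga (3.03) heads the wild type, and Tbx5, Tbx10, Tbx18, Tbx20 and Tbx22 lie at 0.

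The 9 other T-box genes were mostly unread. Tbx10, Tbx18, Tbx20 and Tbx22 had 0 counts in all 6 libraries, and only Mga and Tbr1 passed the filter. Mga, a large protein that joins a T-box with a Max-binding domain and is expressed in most cells, was at 117, 88.7 and 55.1 CPM in the knockout and 47.1, 53.3 and 38.9 CPM in the wild type. Every knockout library was above every wild-type library, yet the difference did not pass the threshold (log2 fold change 0.91, SE 0.30, adjusted p = 0.0537 by edgeR's quasi-likelihood test). Over the 13 fits made, the adjusted p of Mga ran from 0.0202 to 0.161 and was under 0.05 in 4, DESeq2's among them.

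Tbr1, the paralog of Eomes in cortical neurons, was low in every library, at 0.147 ± 0.0603 CPM in the knockout and 0.557 ± 0.644 CPM in the wild type (log2 fold change -1.91, SE 0.97, adjusted p = 0.179, edgeR). Tbx19, a pituitary factor, had 0, 38 and 49 counts in the knockout and none in the wild type. Tbx15 had 16, 32 and 0 counts in the knockout and 5, 0 and 5 in the wild type, and T, the brachyury gene, had 11, 5 and 0 against none. Of the 2 genes tested, 0 passed in either direction by edgeR at an adjusted p under 0.05, beside the 19.4% and 10.7% given above. Mga alone passed as higher by DESeq2, and alone had an unadjusted p below that level by edgeR.

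Within the knockout group, the T-box genes did not share a pattern over the libraries. Tbx2, Tbx6, Tbx21 and Eomes were highest in library 1 and lowest in library 2, by 2.64-fold, 4.61-fold, 5.57-fold and 6.70-fold. Tbx4 and Tbx1 were nearly level between these libraries, with a ratio of library 1 to library 2 of 0.929 and 0.989. The sum of Cd3d, Cd3e and Cd3g, which encode the signalling chains of the T cell receptor, was 13.6, 2.37 and 9.91 CPM in knockout libraries 1 to 3, a 5.74-fold step from library 2 to library 1. In the wild type the same sum was 0.332, 0.530 and 0.0464 CPM.

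The ratio of Tbx21 to this Cd3 sum was 0.303, 0.313 and 0.250 in knockout libraries 1 to 3. Eomes stood at 0.421, 0.361 and 0.272. For the other 4 genes the ratio ran from 1.88 to 11.6 for Tbx4, 1.59 to 5.31 for Tbx2, 0.353 to 1.12 for Tbx6 and 0.0494 to 0.493 for Tbx1. These are ratios over 3 libraries and are a description only. Another T or NK marker in place of the Cd3 sum can give other ratios. Thy1 had a ratio of library 1 to library 2 of 1.02, and Klrb1c was highest in library 2, while most such markers were lowest there.

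Most T and NK cell identity markers differed between the knockout and wild-type groups. Of 16 such genes, 15 were tested and 14 were higher in the knockout (0 lower), against 19.4% of all genes tested, with a median log2 fold change of 4.94 beside 0.04 over all genes tested. With genes at or under the limit set to their bound, the median was 4.19. Their summed level was 79.8 to 151 CPM in the knockout and 3.002 to 5.81 CPM in the wild type. The exceptions were Cd247, whose difference did not pass (adjusted p = 0.110, edgeR), and Ncr1, the NK receptor NKp46, which had 0, 5 and 9 counts in the knockout, none in the wild type and was not tested.

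Cd8b1, a CD8 chain, and Bcl11b, the T cell commitment factor, had no wild-type counts and were at least 15.9-fold and 11.4-fold higher in the knockout (adjusted p = 0.0045 and 0.0062, edgeR). Klrb1c, the NK1.1 receptor of C57BL/6 NK cells, was at least 28.5-fold higher (adjusted p = 0.0019). Thy1, a glycoprotein of T cells that is also found on some other cells, rose from 0.155 ± 0.134 to 40.3 ± 3.71 CPM (log2 fold change 7.99, SE 0.60, adjusted p = 0.0003). Of the 15 markers tested, 14 were lowest among the knockout libraries in library 2, as Tbx2, Tbx6, Tbx21 and Eomes were, beside 34.8% of all genes tested. The exception was Klrb1c, which was highest there, at 2.83, 8.63 and 4.27 CPM. The part of T and NK cells in the levels of Tbx21 and Eomes was not tested.

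**Figure D3:**
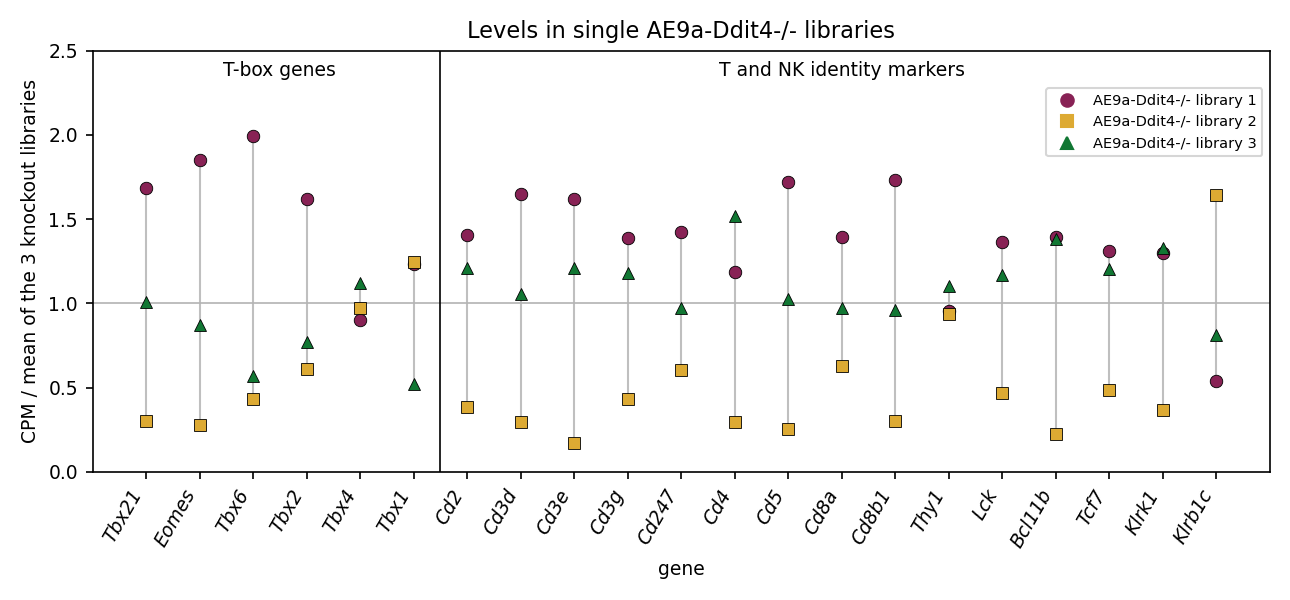
Level in each of the 3 knockout libraries divided by their mean (vertical axis) for 6 T-box genes and 15 T and NK identity markers (horizontal axis), with grey lines from lowest to highest. Library 2 lies lowest for Tbx21, Eomes, Tbx6, Tbx2 and 14 of the 15 markers, while Tbx4 and Thy1 stay close to 1 in all 3 libraries.

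T-bet and Eomes act on effector genes of cytotoxic and type 1 helper lymphocytes, and 16 such genes were examined. Of these, 8 were higher in the knockout, 0 were lower and 8 did not pass, beside 19.4% higher and 10.7% lower among all genes tested. The median log2 fold change was 2.05, beside 0.04 over all genes tested. Prf1, which encodes perforin, was at 47.7, 25.9 and 17.8 CPM in the knockout and 0.0633, 0 and 0 CPM in the wild type, 166 times the limit of detection on average (adjusted p = 0.0006, edgeR). Fasl, the death ligand, was 20.2 times the limit (adjusted p = 0.0042), with no wild-type library above 4 counts.

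Ccl5, a chemokine, rose from 0.929 ± 0.480 to 55.8 ± 20.6 CPM (log2 fold change 5.90, SE 0.53, adjusted p = 0.0005, edgeR). Il2rb, the shared receptor chain for IL-2 and IL-15, rose from 0.674 ± 0.181 to 30.7 ± 12.5 CPM (5.51, SE 0.48, adjusted p = 0.0005). Gzma (5.11), Ifng (4.98), Cxcr3 (2.57) and Il18rap (2.56) were the other genes that rose. Gzmb, a granzyme that other blood cells also make, was at 7.88 ± 2.34 CPM in the knockout and 13.8 ± 18.3 CPM in the wild type (adjusted p = 0.677). Nkg7, Klrg1, Zeb2, Il12rb2, Prdm1, S1pr5 and Cx3cr1 did not pass either. Of the 16 genes, 12 were lowest among the knockout libraries in library 2.

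Partners and targets of Tbx1, Tbx2, Tbx4, Tbx5 and Tbx6 in heart, limb and somites were mostly unread. Of 25 such genes, 12 had 0 counts in all 6 libraries, among them the cardiac factors Nkx2-5, Gata4, Hand1, Hand2 and Isl1 and the hindlimb factor Pitx1. Another 4 did not exceed 12 counts in any library, and 6 were tested. Fgf10, the limb and lung bud growth factor known as a target of Tbx4 and Tbx5, had 401, 218 and 62 counts in the knockout and none in the wild type, at least 19.7-fold higher (adjusted p = 0.0053, edgeR). Mesp2, a somite gene downstream of Tbx6, had 56, 13 and 33 counts against none, at least 2.83-fold higher (adjusted p = 0.01001).

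Dll1, Dll3 and Smarcd3 did not pass, which leaves 3 of 6 higher and 0 lower, beside 19.4% and 10.7% of all genes tested. Fgf10 and Mesp2 could pass the filter only through their knockout levels. The median log2 fold change of the 6 was 3.16, and 1.53 with the 3 low genes at their bound, beside 0.04 over all genes tested. With counts divided by 4, 1 gene of this list was higher. Of 14 genes of the streak, endoderm and trophoblast that work beside Eomes in the embryo, none passed the filter. In 13 of them no library exceeded 12 counts, and Sox17 reached 20.

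Among 8 genes described as repressed by Tbx2 or Tbx3, 1 was lower and 1 higher in the knockout. With 10.7% of all genes tested lower and 19.4% higher, these counts are near the background and are no result about the list. Cdkn2b, the cell cycle inhibitor p15, was at 0.257, 0.313 and 0.190 CPM in the knockout and 2.69, 2.59 and 2.54 CPM in the wild type. These groups stood well apart with little spread in either (log2 fold change -3.36, SE 0.46, adjusted p = 0.0022, edgeR). Ndrg1, a stress-response gene, was the one that rose, from 31.5 ± 7.33 to 215 ± 11.8 CPM (2.77, SE 0.22, adjusted p = 0.0004).

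Cdkn1a, which encodes p21, was at 547 ± 90.6 CPM in the knockout and 215 ± 134 CPM in the wild type and did not pass (1.35, SE 0.51, adjusted p = 0.0859, edgeR). Cdkn2a (0.17), Cdh1 (-0.11), Cst6 (1.44) and Gja1 (1.38) did not pass either. The median log2 fold change of the 8 genes was 0.76, beside 0.04 over all genes tested.

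Stroma and endothelium, which also use T-box genes, were read alongside. Of 14 such markers, 13 were tested, 8 were higher and 1 (Vwf) was lower in the knockout, beside 19.4% and 10.7% of all genes tested. Their median log2 fold change was 3.72, or 3.20 with low genes at their bound, and their sum was 391 to 463 CPM against 26.0 to 43.2 CPM. Pdgfrb, a pericyte and stroma receptor, was at 154 ± 13.7 CPM in the knockout and 1.18 ± 1.01 CPM in the wild type (log2 fold change 7.02, adjusted p = 0.0006, edgeR). The endothelial receptor Tek averaged 133 times the limit of detection (adjusted p = 0.0010), Kdr rose by a log2 fold change of 5.65 (adjusted p = 0.0039), and Pdgfra averaged 9.16 times the limit (adjusted p = 0.0179). The osteoblast gene Bglap had no more than 4 counts in any library, and Col1a1, Col1a2, Col3a1 and Lepr did not pass. The part of such cells in the level of Tbx4, Tbx2 or Fgf10 was not tested.

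By position, 107 genes lie within 200 kb of the 8 T-box genes, and 59 were tested. Of these 9 were higher and 2 lower in the knockout, against 19.4% and 10.7% of all genes tested, and their median log2 fold change was 0.00. No gene near Tbx3 or Tbx5 was tested. Near Tbx2 and Tbx4 the tested genes were Bcas3, on the far side of Tbx2 and 60.4 kb from Tbx4, with a log2 fold change of -0.68 (SE 0.22, adjusted p = 0.0501, edgeR), and Brip1, with -1.08 (SE 0.38, adjusted p = 0.0677). Neither passed, and both had fitted values below 0 beside the higher Tbx2 and Tbx4.

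Next to Tbx6, the genes Ppp4c (0.306 kb away, log2 fold change -0.37, adjusted p = 0.150, edgeR) and Ypel3 (0.969 kb away, 0.94, adjusted p = 0.139) did not pass. Among 29 genes tested there, Il27 (4.08), Sult1a1 (1.76) and Cln3 (0.98) were higher and Hirip3 (-1.31) was lower. Near Tbx21, the TBK1-binding protein gene Tbkbp1 (log2 fold change 1.42, adjusted p = 0.0082) was higher and Sp2 (-0.84) was lower, among 14 tested.

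Of 11 genes tested near Tbx1, the platelet receptor gene Gp1bb, 29.6 kb away, was higher with a log2 fold change of 7.50 (adjusted p = 0.0001, edgeR), and Arvcf was higher with 3.30. Near Eomes, Itga9, an integrin gene 120.6 kb away, was higher with 7.36 (adjusted p = 0.0002), and Golga4 was higher with 0.75, of 3 tested.

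**Figure D4:**
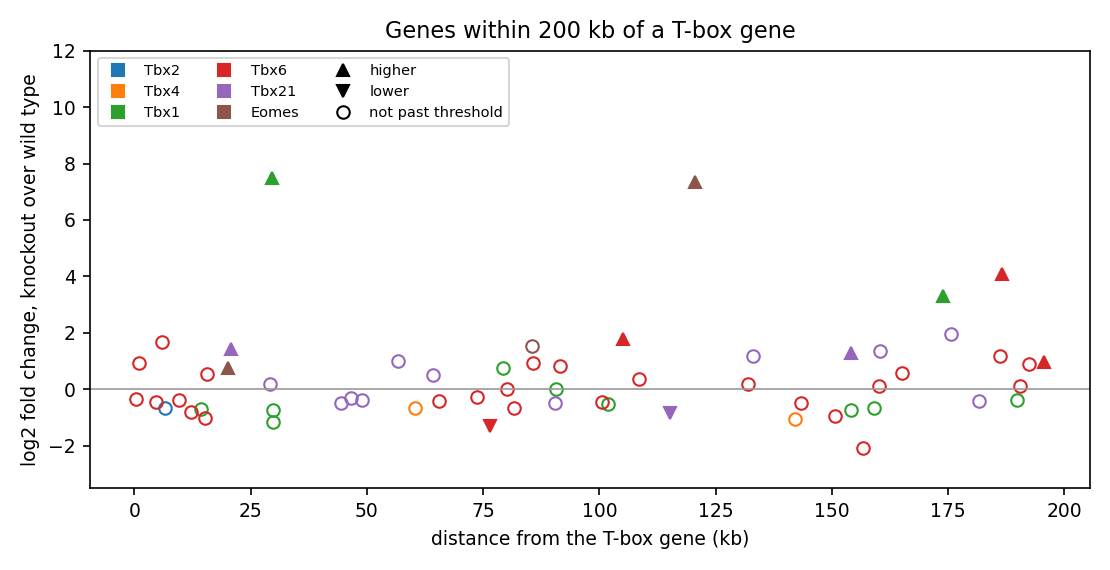
Log2 fold change of each tested gene within 200 kb of a T-box gene (vertical axis) against its distance from that gene in kb (horizontal axis), coloured by T-box gene, with filled triangles for genes past an adjusted p under 0.05 and Bcas3 drawn for both Tbx2 and Tbx4. Most points lie near 0 at all distances, and Gp1bb (7.50, near Tbx1) and Itga9 (7.36, near Eomes) stand highest.

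The genes whose levels over the 6 libraries were most like those of the 2 highest members were listed by Pearson r of log2(CPM + 0.5). For Tbx4 these were Ctsw (r = 0.9995), Zfp711 (0.999) and Dact3 (0.999). They share its step between groups, with Ctsw at 93.5 to 96.9 CPM in the knockout and 0.823 to 1.28 CPM in the wild type, and 1685 genes had an r above 0.95. For Tbx2 they were Tor4a (0.998), Gm48949 (0.998) and Gm38384 (0.997), and 236 genes had an r above 0.95. Tor4a repeated the near overlap of Tbx2, at 35.2 CPM in knockout library 2 and 34.2 CPM in wild-type library 2.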

How the data were processed

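RNA-seq of 6 libraries was analysed. The authors deposited raw counts per gene, with GRCm38 and mm10 named in their processing notes. The aligner, counter and strand setting are not given in the sources used here. Low counts piled up at multiples of 4, with 1.40 to 1.62 times as many values at 4, 8 or 12 as at 2, 6 or 10, so the limit of detection was set at 12 counts (3 fragments of 4 counts) and covers counting error only. Genes were located in GENCODE M21, which held 55154 of 55421 IDs, and 27 symbols that had turned into dates were restored. Counts were filtered with filterByExpr, scaled by TMM (factors 0.921 to 1.05) and tested with edgeR 4.0.16 in R 4.3.3 (robust quasi-likelihood F-test, genotype only, all 6 libraries), with Benjamini-Hochberg adjustment over 18375 genes. Alternatives were DESeq2 1.42.0, other scalings, filters and thresholds, counts divided by 4, a replicate block and leaving out each library. The test was checked on simulated counts.

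The T-box genes and all gene lists were chosen with earlier results of these data known. Named were all 8 T-box genes, the other family members, called neighbours, in each list up to 4 called genes of largest change without overlap plus genes of a defining role, and the 3 genes most like each of the 2 highest members. CPM per kb used the union of exons. Fitted fold changes of genes with 0 counts in a group depend on the prior count and are not printed. Promoter sequences are from RefSeq (GRCm38.p6), and the TATAA motif was added after they had been read. Some genes of the lists are not reported here. Proteins and the Tbx2, Tbx3 and Tbx5 promoters were not analysed here. Replicate numbers were not used as pairs in the main fit. Deviations from the group means had r of -0.238, -0.281 and -0.0413 for same-numbered libraries and -0.0847 to 0.275 for other pairs. With 3 libraries per group such deviations are tied to each other, so these values can neither show nor exclude pairs.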

Additional observations from a re-analysis of the deposited data

How the results depend on the processing

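Of 326 values recomputed under another setting, 286 stayed within 1.5 times (counts) or 1 SD (levels) and 40 moved. Most of these values are counts, which have no direction to change. Log2 fold changes were recomputed here only for Tbx2 and Tbx6, and both stayed above 0 in every setting. An adjusted p under 0.01 left 1964 genes higher and 712 lower among all genes tested, and 5 effector genes, 1 heart, limb and somite gene, 5 neighbours higher, and 0 neighbours and 0 stroma markers lower. Whether the replicate numbers mark pairs is not known. A fit with the replicate block left 2177 genes higher and 787 lower. In that fit 5 effector genes, 1 heart, limb and somite gene and 5 neighbours were higher, and 1 neighbour and 0 stroma markers were lower. The same fit gave Tbx2 a log2 fold change of 1.78 and Tbx6 3.12. With counts divided by 4, 1 heart, limb and somite gene was higher. There, with DESeq2 size factors and by DESeq2's Wald test, 1 other T-box gene (Mga) was higher. DESeq2 also had 2 genes of the Tbx2 and Tbx3 list higher (Cdkn1a was added) and 4 neighbours lower. Within 500 kb, 26 neighbours were higher and 12 lower. The cause of these moves was not tested.

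Leaving out 1 library gave 2683 to 3943 genes higher and 1089 to 2078 lower, where wild-type library 1 (1168), wild-type library 3 (1089) and knockout library 1 (1157) moved the count of lower genes most. The ranges were 0 to 1 for other T-box genes (Tbx19 without knockout library 1, Mga without knockout library 3), 6 to 9 for effector genes, 10 to 14 for identity markers, 2 to 3 for heart, limb and somite genes, 0 to 1 for early embryo genes (Sox17 without knockout library 3), 1 to 2 higher (2 without wild-type library 2, with Cdkn1a, or 3, with Cst6) and 1 lower for the Tbx2 and Tbx3 list, 6 to 9 higher and 0 to 1 lower for stroma (Vwf was called without wild-type library 2 alone), 5 to 6 higher and 0 to 1 lower for myeloid markers (lower without knockout library 3), and 6 to 10 higher and 0 to 3 lower for neighbours (0 without knockout library 2, 1 without wild-type library 1 or 3). For Tbx2 the log2 difference ran from 1.11 to 2.45 and for Tbx6 from 2.32 (without knockout library 1) to 3.96. The log2 of the knockout level over the limit ran from 7.13 to 7.34 for Tbx4, 3.13 to 4.11 for Tbx21, 3.27 to 4.46 for Eomes and 2.10 to 2.62 for Tbx1. Depth limits Tbx5 and the wild-type levels of Tbx1, Tbx4, Tbx21 and Eomes, which lie at or under 12 counts, and Tbx3, which exceeded 12 counts in knockout library 2 alone, with 13.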
